A study of Mus musculus with 2 samples.

Results

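Complement and coagulation factors are blood proteins, most of them secreted by the liver. They were followed here as 47 genes, 23 of complement and 24 of coagulation, in mouse liver RNA from 2 pools. The genes were taken from a list drawn up by pathway, with the serpin inhibitors left out. That list was made with earlier results of these data known. A probe belonged to a gene where its RefSeq transcript identifier, without version, mapped to the symbol. All 47 genes had at least 1 probe well above background on both arrays, out of 14288 named genes that did. The Ad-378 pool was RNA from the livers of 5 male mice given 1e9 plaque forming units of an adenovirus labelled for overexpression of the microRNA miR-378. The Ad-Ctrl pool came from 5 male mice given the same dose of a control adenovirus. Injection was by tail vein in both groups, when the mice were 8 weeks old, so the 2 groups share exposure to adenovirus. What the control virus carried, the promoter of the miR-378 construct and the mouse strain are not given in the sources used here. Livers were taken 2 weeks after injection per the protocols, whereas 1 label of the Ad-378 pool says 3 weeks, so time and virus cannot be told apart if that label is right. Each pool was hybridised to 1 array. There was thus no spread between replicates, and no difference below carries a p-value.

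Complement is a cascade of plasma proteases and binding proteins. C1q or the mannose-binding lectins start it on immune complexes or sugars, C3 is its hub, and C5 to C9 assemble into a pore in the target membrane. Coagulation runs from tissue factor and the contact proteases through prothrombin to fibrin, with protein C and thrombomodulin as brakes and plasmin as the enzyme that dissolves clots. Hepatocytes make most of these proteins, but C1q and properdin come mainly from macrophages and other myeloid cells, and von Willebrand factor, thrombomodulin and factor VIII from endothelium.

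On each array the processed signal was divided by that array's 75th percentile over probes, which was 695 in Ad-378 and 800 in Ad-Ctrl. These scaled signals have no unit, and a value of 1 is the 75th percentile. They compare 1 probe between the pools, and not 1 gene with another. A difference is the log2 of the Ad-378 over the Ad-Ctrl scaled signal, and the value after ± is the error that the scanner software assigns to the 2 spots. That error was 0.20 for the median member and covers measurement on the array only, not mice. Among gene spots, 65.7% in Ad-378 and 63.1% in Ad-Ctrl were well above background, and none was saturated.

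In the Ad-378 pool, C8b, F3, Plg, Mbl1 and C9 stood 2-fold or more above Ad-Ctrl. These 5 are 10.6% of the members, where 2.83% of all measured genes reached that fold. Thrombomodulin (Thbd) and complement factor D (Cfd) were at least 2-fold lower, 4.26% of members against 4.52% of all measured genes, so the lower share was near the background. At 1.5-fold, 10 members (21.3%) were higher, against 8.78% of all genes, and 6 (12.8%) were lower, against 12.1%. The other 31 members lay within 1.5-fold. The median difference over the members was 0.14, beside 0.04 over all measured genes. Under quantile and loess normalization the member medians were 0.00 and -0.02. In each, 2 of the 47 members, C8b and F3, were at least 2-fold higher, against 2.62% and 2.48% of all measured genes. The sign of 39 of the 47 differences was the same under the main values and all 7 alternative settings. On the main values, the 8 that turned were within 0.17 of 0. C8b and F3 were past 2-fold in every one of these settings, whereas Mbl1, C9, Plg, Cfd and Thbd lay close to the line and crossed it in at least 1.

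**Figure D1:**
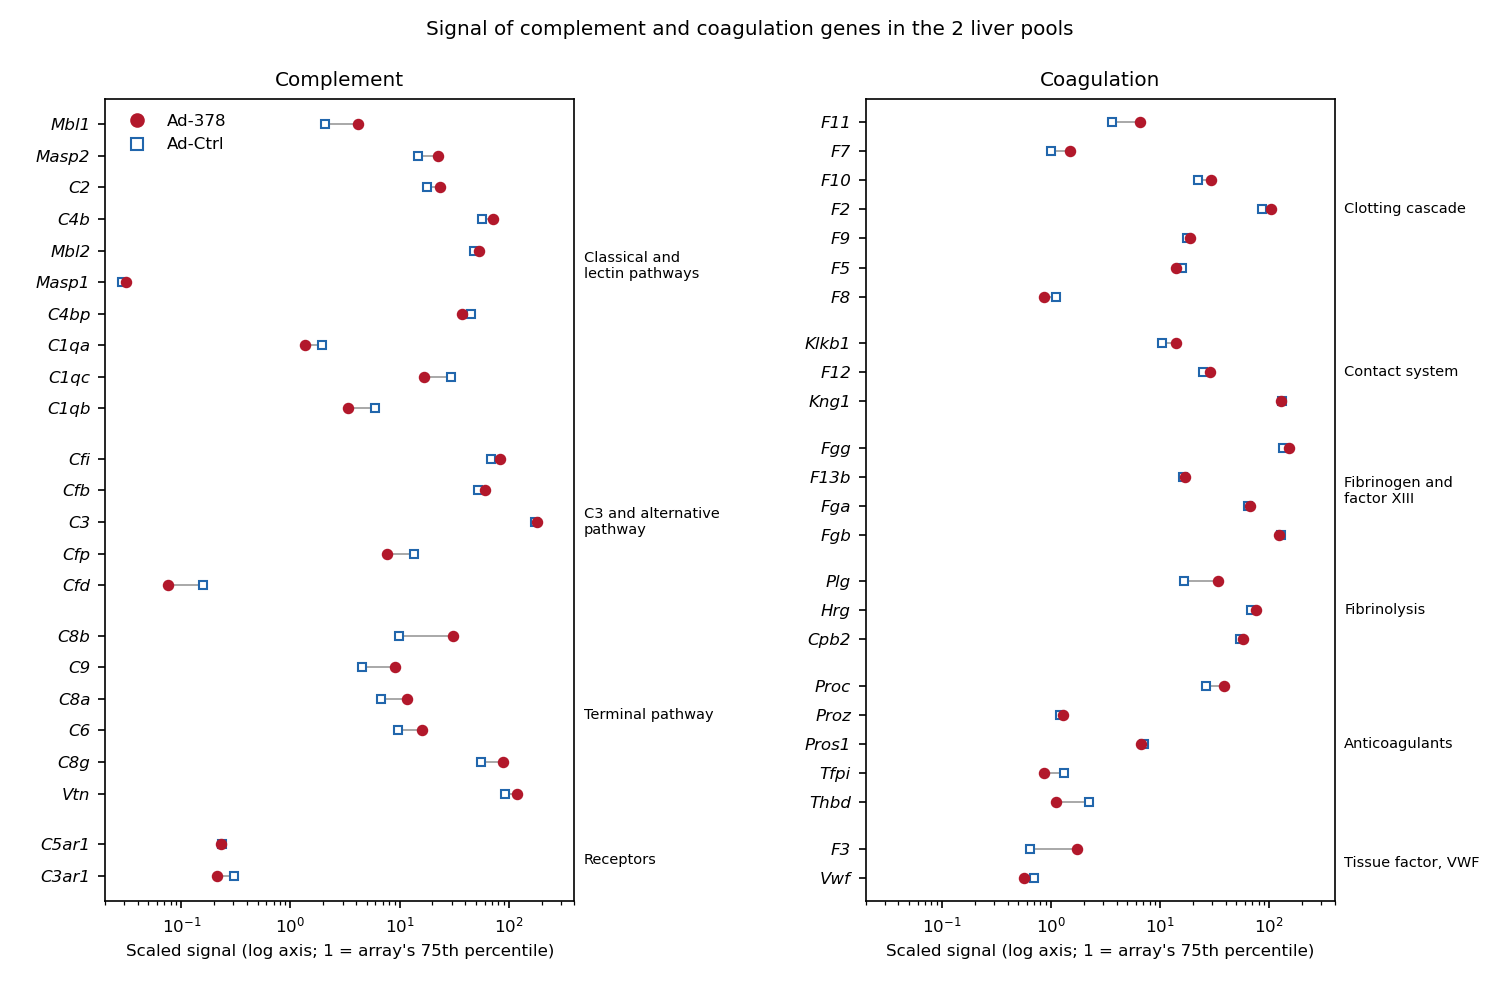
Scaled signal of every member in the Ad-378 pool (filled circles) and the Ad-Ctrl pool (open squares), on a log axis, by role in the pathway. A line joins the 2 values of a gene, and each point is 1 array. The longest lines belong to C8b (30.6 in Ad-378, 9.97 in Ad-Ctrl) and F3 (1.72 and 0.636).

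The genes of the terminal pathway stood higher in the Ad-378 pool. All 6 had positive differences, with a median of 0.76, and 5 of the 6 exceeded 1.5-fold. C8b, the beta chain of C8, which joins the pore after C7, had a scaled signal of 30.6 in Ad-378 and 9.97 in Ad-Ctrl, a difference of 1.62 ± 0.20 or 3.07-fold. C9, the subunit that polymerises into the ring of the pore, read 9.02 in Ad-378 and 4.48 in Ad-Ctrl (1.01 ± 0.20). C8a, the alpha chain of C8, read 11.7 in Ad-378 and 6.79 in Ad-Ctrl (0.79 ± 0.20). Its second probe was far dimmer, at 0.922 and 0.540, yet gave 0.77, so the 2 probes of C8a differed by less than the scanner error.

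The remaining terminal genes were higher by less. C6, which joins C5b at the start of pore assembly, read 16.1 in Ad-378 and 9.67 in Ad-Ctrl (0.73 ± 0.20). C8g, the lipocalin-like gamma chain of C8, read 89.1 in Ad-378 and 55.6 in Ad-Ctrl, and its probes gave 0.68 and 0.65. Vitronectin (Vtn), which binds the forming complex in plasma and keeps it from membranes, read 118 in Ad-378 and 92.0 in Ad-Ctrl (0.36 ± 0.20). The 3 chains of C8 thus had unequal differences, with C8b the highest. The terminal median was 0.67 under quantile and 0.63 under loess normalization. Hepatocyte markers such as Alb and Ahsg had a median of 0.18 in 14 measured genes. The 2 other components of the complex were not on the list of 47 members. Hc, the mouse gene of C5, had 0.48 ± 0.20 and was picked out after its value was seen. C7 was well above background in Ad-378 only, with a bound of 1.5-fold. Its signals were very dim, at 0.029 in Ad-378 and 0.014 in Ad-Ctrl, and carry little weight.

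C8a and C8b are adjacent protein-coding genes on chromosome 4, and C9 lies on chromosome 15. Their promoter windows are shown because these 3 genes had the largest terminal differences. The windows run from 250 bases before to 50 after the annotated start, 5′ to 3′, and are RefSeq sequence of build GRCm38.p6. Capitals mark matches on either strand to 5 motifs, namely the HNF1 motif GTTAAT, the C/EBP motif TTNNGCAA, the STAT motif TTCNNNGAA, the PU.1 core GAGGAA and the AP-1 motif TGANTCA, and no matches overlap in the windows printed here.
C8a, chr4:104876349-104876648, minus strand: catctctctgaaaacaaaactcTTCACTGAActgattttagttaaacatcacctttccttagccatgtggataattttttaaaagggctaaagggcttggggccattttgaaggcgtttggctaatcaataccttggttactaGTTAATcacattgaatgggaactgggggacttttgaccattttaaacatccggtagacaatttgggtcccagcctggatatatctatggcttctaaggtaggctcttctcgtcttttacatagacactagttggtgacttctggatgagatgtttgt
C8b, chr4:104766067-104766366, plus strand: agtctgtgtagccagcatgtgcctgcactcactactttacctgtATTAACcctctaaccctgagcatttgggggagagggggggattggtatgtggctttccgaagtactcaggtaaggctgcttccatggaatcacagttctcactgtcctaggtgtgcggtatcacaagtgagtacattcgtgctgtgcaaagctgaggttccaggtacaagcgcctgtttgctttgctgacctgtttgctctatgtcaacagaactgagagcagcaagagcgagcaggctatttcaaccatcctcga
C9, chr15:6445096-6445395, plus strand: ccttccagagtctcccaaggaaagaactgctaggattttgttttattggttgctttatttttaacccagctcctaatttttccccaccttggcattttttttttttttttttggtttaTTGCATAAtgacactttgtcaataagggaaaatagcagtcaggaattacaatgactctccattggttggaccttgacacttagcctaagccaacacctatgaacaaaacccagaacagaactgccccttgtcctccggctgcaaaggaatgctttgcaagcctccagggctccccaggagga

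C8a and C8b each held 1 match to the partial HNF1 motif, and C8a also 1 STAT match. C9 held 1 C/EBP match and no match to the partial HNF1 motif. HNF1 and C/EBP are families of transcription factors active in hepatocytes. The partial HNF1 motif occurred in 7.10% of 32851 mouse promoter windows of this length and in 10 of the 36 members with a window. The C/EBP motif occurred in 10.8% of all windows and 9 of 36 members, and the STAT motif in 8.30% and 7 of 36. A match describes letters only, and these data do not show binding.

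The classical pathway opened with lower values. C1q, its recognition molecule, is built from 3 chains, and all 3 chain genes were lower in the Ad-378 pool. C1qb read 3.39 in Ad-378 and 6.0 in Ad-Ctrl (-0.82 ± 0.20). C1qc read 16.8 in Ad-378 and 29.5 in Ad-Ctrl (-0.81 ± 0.20), and over its 9 spots the log2 signal had an SD of 0.034 in Ad-378 and 0.046 in Ad-Ctrl. C1qa read 1.37 in Ad-378 and 1.93 in Ad-Ctrl (-0.49 ± 0.20). The 3 genes are adjacent to each other on chromosome 4, and their differences ranged from -0.82 to -0.49.

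Of the 7 remaining members of the classical and lectin pathways, 6 had positive differences and C4bp a negative one. C2, the protease of the C3 convertase, read 23.3 in Ad-378 and 17.8 in Ad-Ctrl (0.39 ± 0.20), and C4b, its partner, 71.0 and 56.4 (0.33 ± 0.20). The C4b probe may also read the near-identical gene C4a. C4bp, the alpha chain of the C4b-binding inhibitor, read 37.3 in Ad-378 and 45.0 in Ad-Ctrl (-0.27 ± 0.20). Among the lectins, Mbl1 (mannose-binding lectin A) read 4.16 in Ad-378 and 2.06 in Ad-Ctrl, a difference of 1.01 ± 0.20 that was 0.95 under loess normalization. Mbl2 (mannose-binding lectin C) read 53.5 and 47.9 (0.16 ± 0.20), and its sign turned under loess normalization at -0.02. The 2 mannose-binding lectins therefore differed from each other in size. Masp2, the protease that lectins activate to cut C4 and C2, had 0.63 ± 0.20, with 22.6 in Ad-378 and 14.6 in Ad-Ctrl. Its 3 probes gave 0.28 to 0.63. The Masp1 probe was dim, at 0.031 in Ad-378 and 0.029 in Ad-Ctrl (0.11 ± 0.35), and carries little weight.

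The windows of C1qb and C1qc are shown because both genes differed by the same amount and are neighbours. The conventions are those given for C8a.
C1qb, chr4:136886151-136886450, minus strand: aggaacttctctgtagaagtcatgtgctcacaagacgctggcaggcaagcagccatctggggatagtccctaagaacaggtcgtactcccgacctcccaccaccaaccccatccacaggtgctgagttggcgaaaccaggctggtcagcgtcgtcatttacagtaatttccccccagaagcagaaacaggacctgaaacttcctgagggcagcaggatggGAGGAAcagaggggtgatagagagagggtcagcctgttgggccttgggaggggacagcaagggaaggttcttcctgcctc
C1qc, chr4:136892865-136893164, minus strand: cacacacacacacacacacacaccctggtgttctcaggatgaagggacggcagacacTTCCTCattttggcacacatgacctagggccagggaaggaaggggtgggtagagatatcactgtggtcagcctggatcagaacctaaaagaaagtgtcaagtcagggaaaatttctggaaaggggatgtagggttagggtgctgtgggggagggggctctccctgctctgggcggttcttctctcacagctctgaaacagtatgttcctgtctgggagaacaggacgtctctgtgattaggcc

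C1qb and C1qc each held 1 match to the core of PU.1, a factor of myeloid cells, and none to the other 4 motifs. That core is short and occurred in 28.3% of all windows and in 6 of the 36 members.

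In the alternative pathway the central genes were close between the pools and those made outside hepatocytes were lower. C3 read 183 in Ad-378 and 176 in Ad-Ctrl (0.06 ± 0.20), and its second probe gave -0.10. The sign of C3 turned under quantile (-0.20) and loess (-0.17) normalization. Its SD over 9 spots was 0.087 in Ad-378 and 0.065 in Ad-Ctrl. Factor B (Cfb), the protease of the alternative convertase, read 60.1 and 52.3 (0.20 ± 0.20), and factor I (Cfi), which inactivates C3b, 82.4 in Ad-378 and 68.1 in Ad-Ctrl (0.28 ± 0.20). Properdin (Cfp), the stabiliser of the convertase, read 7.61 in Ad-378 and 13.5 in Ad-Ctrl, 1.78-fold lower in Ad-378 (-0.83 ± 0.20). Factor D (Cfd), the protease that cuts factor B and is also known as the adipocyte product adipsin, read 0.075 in Ad-378 and 0.157 in Ad-Ctrl (-1.06 ± 0.22). Its signal was dim and the size depended on the background step, with -0.58 from the deposited series matrix and -0.48 with normexp correction. Adipocyte markers in these pools were few, with Adipoq, Plin1 and Lep not well above background on either array. Their 7 measured genes had a median of -0.25 and a summed scaled signal of 45.9 in Ad-378 and 28.3 in Ad-Ctrl. The lipid droplet gene Cidec, which hepatocytes also express, differed by 1.68, and the fatty acid carrier Fabp4 by -0.93. The part of fat cells in the factor D value was not tested.

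The receptors of the split products C3a and C5a were both dim. C3ar1 read 0.212 in Ad-378 and 0.304 in Ad-Ctrl (-0.52 ± 0.21). C5ar1 read 0.231 in Ad-378 and 0.238 in Ad-Ctrl (-0.04 ± 0.21), a difference well inside the scanner error.

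**Figure D2:**
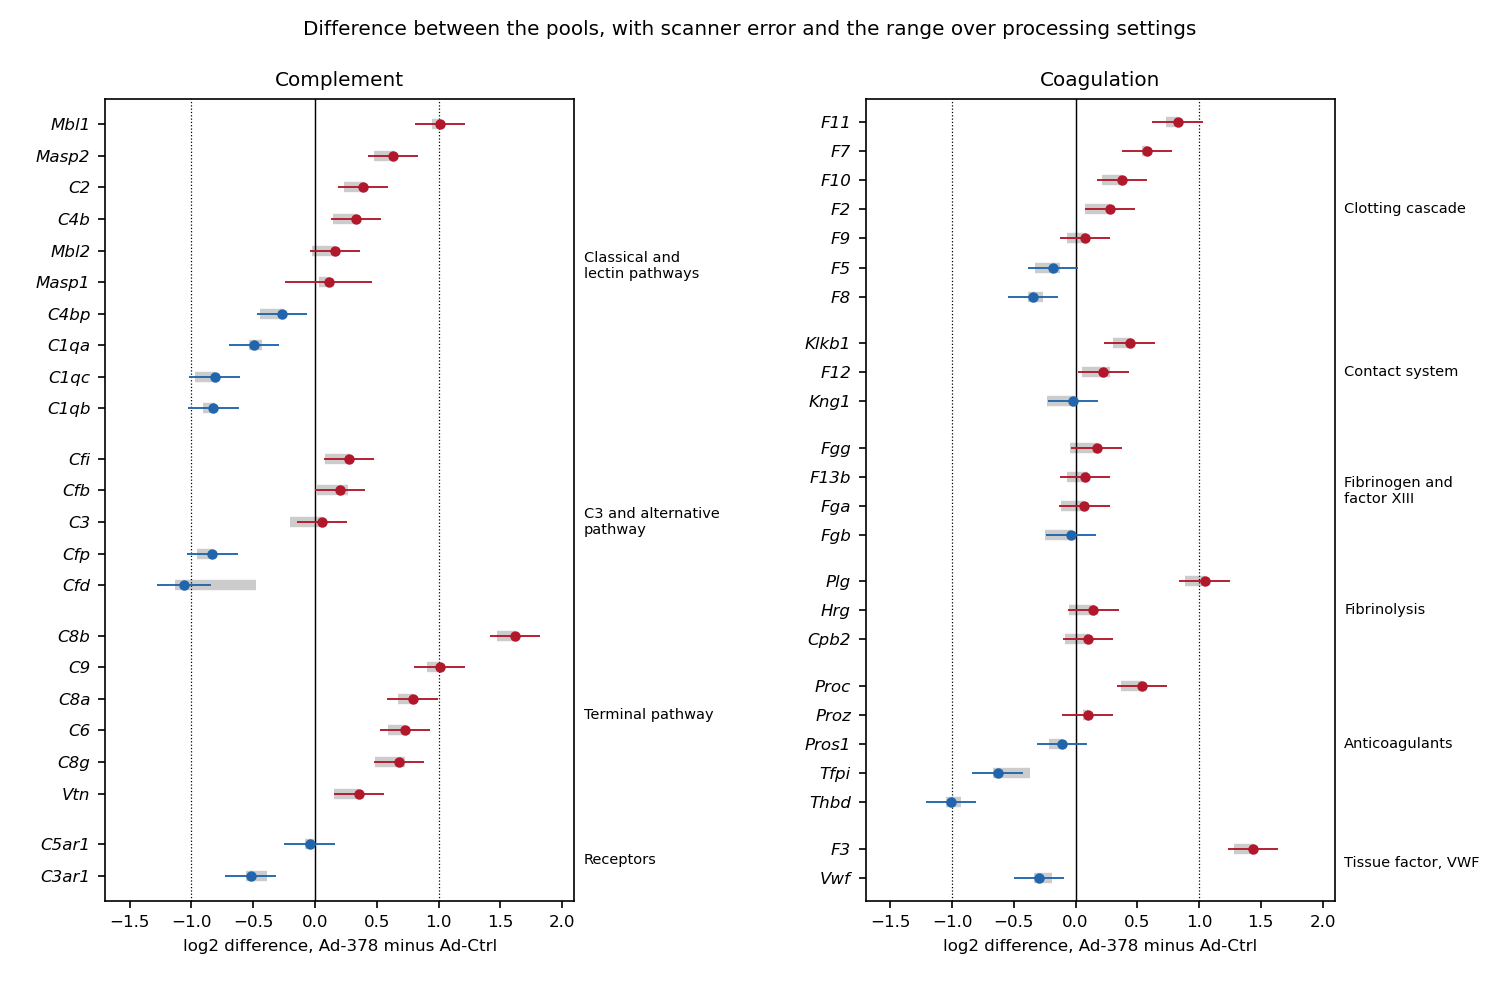
Log2 difference, Ad-378 minus Ad-Ctrl, for each member by role. Points are the main values with the scanner error as bars, grey bands run from the lowest to the highest value over the processing settings, and dotted lines mark 2-fold. All 6 terminal genes lie right of 0, and C1qa, C1qb, C1qc, Cfp and Cfd lie left of it.

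In the clotting cascade, the hepatocyte proteases were level or higher. Factor XI (F11), which activates factor IX, read 6.49 in Ad-378 and 3.66 in Ad-Ctrl (0.83 ± 0.20). Factor VII (F7), the partner of tissue factor, read 1.49 in Ad-378 and 0.999 in Ad-Ctrl (0.58 ± 0.20), and its other probe gave 0.50. Both genes were thus higher by over 2 scanner errors. F10, the protease that makes thrombin, read 29.1 and 22.4 (0.38 ± 0.20), and its other probe gave 0.23. Prothrombin (F2) read 104 in Ad-378 and 85.3 in Ad-Ctrl (0.28 ± 0.20). Factor IX (F9), mutated in haemophilia B, read 18.8 and 17.8 (0.08 ± 0.20), and its sign turned under quantile and loess normalization, at -0.07 in each. The cofactor genes had negative differences. F5, the cofactor of factor X, read 13.99 in Ad-378 and 15.9 in Ad-Ctrl (-0.18 ± 0.20). F8, the cofactor of factor IX, read 0.871 in Ad-378 and 1.104 in Ad-Ctrl (-0.34 ± 0.20), and a second F8 probe was not well above background in either pool. The cascade median was 0.28 on the main values, 0.12 under quantile and 0.07 under loess normalization.

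The contact system, which starts clotting on charged surfaces, had 1 member beyond 2 scanner errors on the main values. Plasma prekallikrein (Klkb1) read 14 in Ad-378 and 10.3 in Ad-Ctrl (0.44 ± 0.20). It had 0.33 under quantile and 0.30 under loess normalization, within 2 scanner errors. Factor XII (F12), the protease that prekallikrein activates in turn, read 28.6 in Ad-378 and 24.4 in Ad-Ctrl (0.22 ± 0.20). Kininogen (Kng1), the source of bradykinin, read 129 in Ad-378 and 131 in Ad-Ctrl (-0.02 ± 0.20). The Kng1 probes may share signal with the near-identical copy Kng2. Klkb1 and F11 are adjacent genes and related in sequence, and both were higher, by 0.44 and 0.83.

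Fibrinogen, the substrate of the clot, differed on the main values by less than the scanner error at the brightest probe of each chain. Fga read 66.9 in Ad-378 and 63.7 in Ad-Ctrl (0.07 ± 0.20), with -0.25 at a dimmer probe. Fgb read 124 in Ad-378 and 127 in Ad-Ctrl (-0.04 ± 0.20), and Fgg 152 and 135 (0.17 ± 0.20). The 3 chain genes are neighbours in the genome. F13b, the carrier subunit of the enzyme that cross-links fibrin, read 17.0 in Ad-378 and 16.1 in Ad-Ctrl (0.08 ± 0.20), with a spot SD of 0.040 in Ad-378 and 0.056 in Ad-Ctrl over 9 spots. The signs of Fga, Fgg and F13b turned under quantile and loess normalization, while Fgb was below 0 throughout. Fgb had -0.24 under quantile and -0.25 under loess normalization, past the scanner error. This group thus stayed closer to 0 than C8b and C9 of the terminal pathway.

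Among the genes of clot breakdown, plasminogen stood apart. Plg, the precursor of plasmin, read 33.9 in Ad-378 and 16.4 in Ad-Ctrl, 2.06-fold higher (1.04 ± 0.20; 0.89 under both quantile and loess normalization). Cpb2, the carboxypeptidase that slows fibrinolysis, read 57.8 in Ad-378 and 54.0 in Ad-Ctrl (0.10 ± 0.20). Hrg, a glycoprotein that binds plasminogen, read 75.6 in Ad-378 and 68.4 in Ad-Ctrl (0.14 ± 0.20). The signs of both turned under quantile and loess normalization.

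The anticoagulants fell on both sides of 0. Protein C (Proc), which inactivates factors V and VIII, read 38.1 in Ad-378 and 26.3 in Ad-Ctrl (0.54 ± 0.20). Its cofactor protein S (Pros1) read 6.65 in Ad-378 and 7.16 in Ad-Ctrl (-0.11 ± 0.20), and Proz, a cofactor for inhibition of factor X, 1.30 and 1.21 (0.10 ± 0.20). Thrombomodulin (Thbd), the endothelial receptor that turns thrombin into an activator of protein C, read 1.11 in Ad-378 and 2.23 in Ad-Ctrl, 2.01-fold lower (-1.01 ± 0.20; -0.94 on the series matrix values). Protein C and its endothelial activator therefore differed in opposite directions. Tfpi, the inhibitor of tissue factor, read 0.858 in Ad-378 and 1.33 in Ad-Ctrl (-0.63 ± 0.20) at its brightest probe. Its other probes gave -0.40 and -0.07, so the size depended on the probe and was -0.37 as their mean.

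Tissue factor and von Willebrand factor are the vessel wall's triggers of clotting. F3, the gene of tissue factor, read 1.72 in Ad-378 and 0.636 in Ad-Ctrl, 2.71-fold higher (1.44 ± 0.20). A second, dimmer probe read 0.159 in Ad-378 and 0.059 in Ad-Ctrl, also a difference of 1.44. Vwf read 0.570 in Ad-378 and 0.700 in Ad-Ctrl (-0.30 ± 0.20). F3 was thus higher beside a lower value for its inhibitor Tfpi.

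The window of F3 is shown because F3 had the largest coagulation difference. The conventions are those given for C8a, and 70.3% of its bases are G or C.
F3, chr3:121723287-121723586, plus strand: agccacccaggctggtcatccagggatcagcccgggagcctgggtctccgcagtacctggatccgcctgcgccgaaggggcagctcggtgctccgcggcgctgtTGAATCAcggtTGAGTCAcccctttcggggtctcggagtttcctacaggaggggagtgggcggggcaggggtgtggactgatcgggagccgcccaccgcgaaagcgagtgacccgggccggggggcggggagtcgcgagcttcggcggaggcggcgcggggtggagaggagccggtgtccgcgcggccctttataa

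F3 held 2 matches to the motif of AP-1, a factor of activated cells, found in 7.81% of all windows and in 5 of the 36 members, and none of the other motifs.

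**Figure D3:**
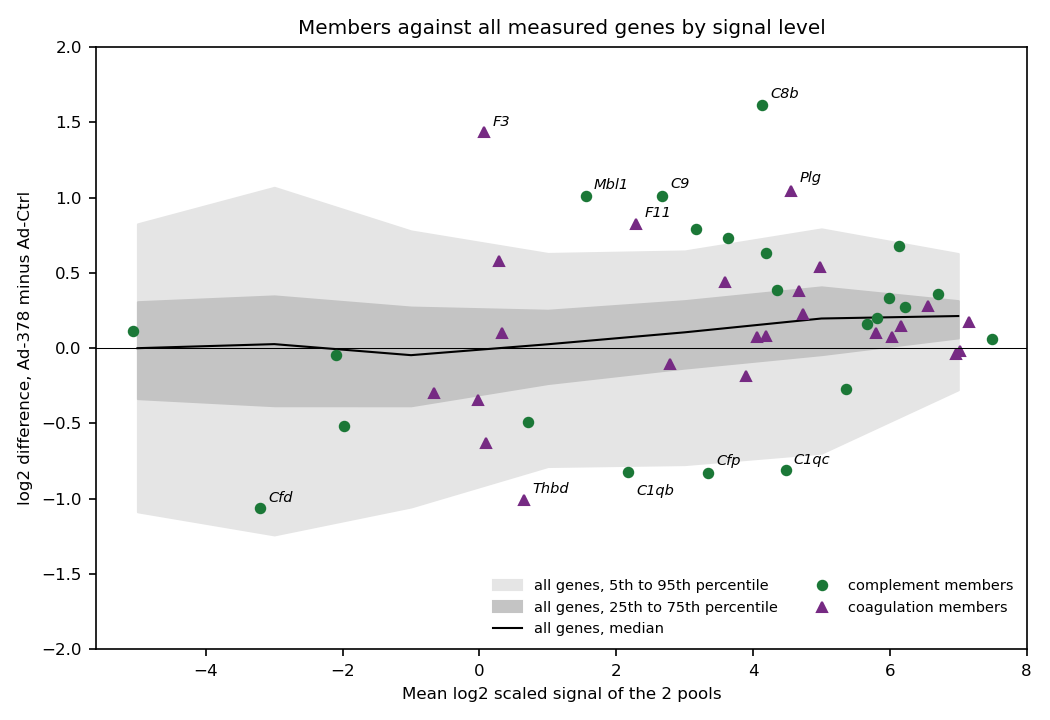
Log2 difference of each member against its mean log2 scaled signal, for complement (circles) and coagulation (triangles). Shading gives the 5th to 95th and the 25th to 75th percentiles of all 14288 measured genes and the line their median, taken in bins 2 log2 units wide and joined between bin centres. By their own bins, 13 of the 47 members lie outside the 5th to 95th percentiles, including C8b, F3 and Plg above and Thbd, C1qb, C1qc and Cfp below.

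Most members gave bright spots, and brightness bears on the reading of small differences. In 38 of the 47 both scaled signals were above 1. The brightest genes of the array as a whole leaned to positive differences, with a median of 0.21 in the 212 genes at mean log2 levels from 6 to 8 and 0.20 in the 836 genes from 4 to 6. Members such as F2 (0.28), Cfi (0.28) and Fgg (0.17) lay near these medians. C8b (1.62) and Plg (1.04) lay above the 95th percentile of their level, which was 0.79.

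The members parted by the cell type known as their main source, an assignment made from textbook knowledge after the values were seen. Of 35 made mainly by hepatocytes, 30 had positive differences and 5 negative ones, with a median of 0.28. Over all measured genes, 53.9% of differences were positive, but that share includes many dim genes. Among all genes at mean log2 levels from 6 to 8 the 25th percentile was already 0.07, and from 4 to 6 it was -0.04. Of the 10 members of any source from 6 to 8, 4 lay above the median of all genes at that level. From 4 to 6, 9 of 15 did. Under loess normalization 22 of these 35 were positive and the median was 0.08. The 6 members of myeloid cells, C1qa, C1qb, C1qc, Cfp, C3ar1 and C5ar1, were all negative, with a median of -0.67 (-0.72 under loess). The 4 endothelial members, Thbd, Tfpi, F8 and Vwf, were also all negative, with a median of -0.49 (-0.50 under loess). Factor D and tissue factor, with several sources, had -1.06 and 1.44.

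Markers of the same cells mostly had differences of the same sign as these members. Of 13 measured Kupffer cell and macrophage markers, 12 were lower in the Ad-378 pool, among them Clec4f (-0.73) and Vsig4 (-0.89), which is itself a receptor for C3 fragments. Their summed scaled signal was 88.3 in Ad-378 and 163 in Ad-Ctrl. Cd14 was the exception at 0.23, and Cd163 was not well above background in either pool. Of 14 endothelial markers, 13 were lower, with a median of -0.26 and a summed scaled signal of 63.8 in Ad-378 and 76.2 in Ad-Ctrl. Hepatocyte markers had 12 of 14 positive differences, with a median of 0.18 that was -0.03 under loess, and summed scaled signals of 1669 in Ad-378 and 1486 in Ad-Ctrl. In bulk liver, fewer cells of a type and less RNA per cell cannot be told apart, and the part of cell numbers in the C1q, properdin and thrombomodulin values was not tested. Genes of activated macrophages went the other way. Of 10 measured, 7 exceeded 2-fold in Ad-378, among them Il1b (2.34) and Ccl3 (3.09), while the monocyte genes Ccr2, Chil3 and Plac8 were lower. The part of such cells in the F3 value was not tested. Markers of cells that are no main source of the members also differed, but not all in 1 direction. Of 11 measured lymphocyte markers, 7 were higher and 4 lower in Ad-378, with a median of 0.02. At 2-fold, 2 of these lymphocyte markers were higher and 3 lower. All 11 measured stellate cell and fibroblast markers were lower in Ad-378, 6 of them at least 2-fold, with a median of -1.02, a summed scaled signal of 39.8 in Ad-378 and 79.0 in Ad-Ctrl, and Col3a1 at -2.71. Of 7 measured neutrophil markers 5 were lower, with a median of -0.38. Their summed scaled signal of 4.63 in Ad-378 and 4.45 in Ad-Ctrl came mostly from Elane (2.89 and 2.31), which was higher. Mpo and Mmp8, the 2 at least 2-fold lower, were very dim and had -0.23 and -0.20 in the setting nearest to 0. Platelet markers were largely dim, and 6 of 10 were not measured on both arrays, Itga2b and Gp1ba among those below background on both, while Pf4 had -0.28.

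**Figure D4:**
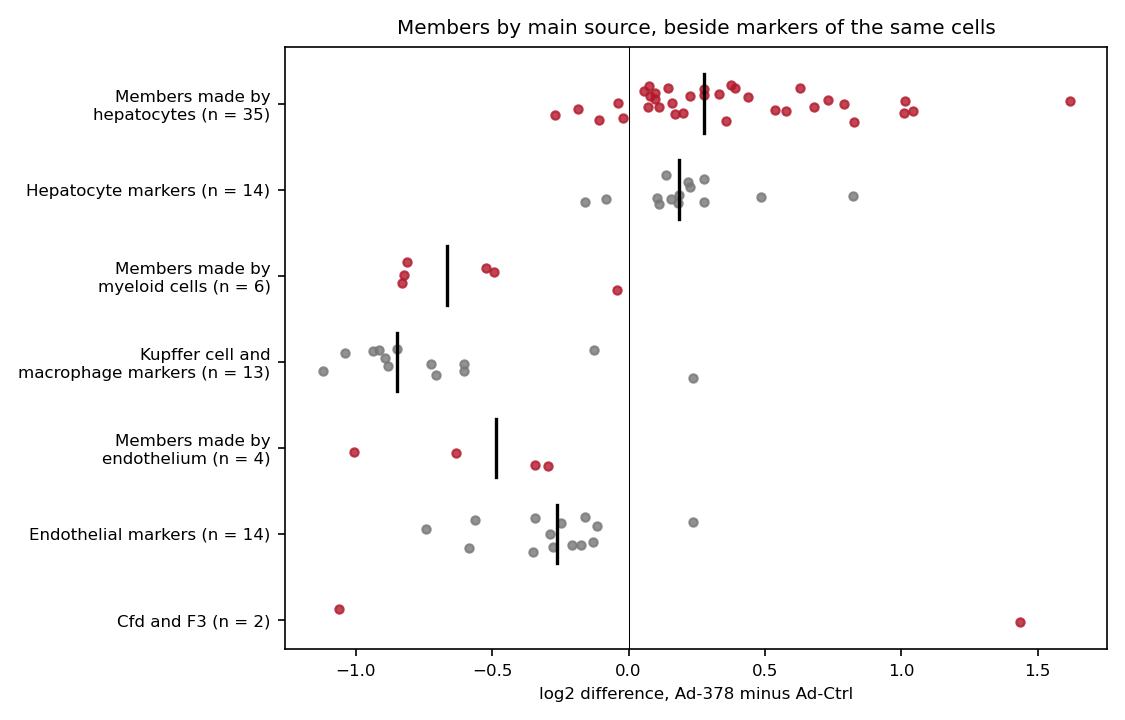
Log2 difference of each member grouped by main cell source (red) above the markers of the same cells (grey), with black bars for medians. Members of myeloid and endothelial cells all lie left of 0, like 12 of 13 macrophage and 13 of 14 endothelial markers, and 30 of 35 hepatocyte members lie right of it.

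A wider set of 79 further pathway entries was read the same way, and 67 were measured on both arrays. The entry C8 is no gene symbol and counts as unmeasured. Of these, 2 passed 2-fold upward and 5 downward, and the median was 0.15. Over all measured genes, 2.83% passed upward and 4.52% downward, and the median was 0.04, so the upward count was near the background. By list, the downward share was 6.67% in complement, 10.7% in coagulation and 0% in the serpins. The downward count fell to 2 after normexp. In complement, Susd4, a membrane protein that restrains the C3 convertase, was 2.88-fold higher in Ad-378 (1.52 ± 0.21). Itgax, the alpha chain of receptor 4, read 0.209 in Ad-378 and 0.808 in Ad-Ctrl (-1.95 ± 0.21). Itgb2, the beta chain it shares with receptor 3, had -1.12 ± 0.20, and just under 2-fold (-0.998) in the setting nearest to 0. Itgam, the alpha chain of receptor 3, was singled out after its value was seen and had 0.89 ± 0.20, but 0.28 in the lowest setting. The C1q-associated proteases C1ra and C1s1, made by hepatocytes, differed by -0.05 and -0.46, and the lectin pathway collectin Colec11 by -0.65; all 3 were singled out after their values were seen.

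In coagulation, 3 of 28 further genes (10.7%) were at least 2-fold lower, against 4.52% of all measured genes. None was at least 2-fold higher, against 2.83% of all measured genes, which says little in a list of 28. Plat, the tissue plasminogen activator, read 0.047 in Ad-378 and 0.167 in Ad-Ctrl (-1.84 ± 0.25), but -0.81 in the setting nearest to 0. Anxa2, a cell surface receptor for plasminogen and Plat, read 2.73 in Ad-378 and 7.70 in Ad-Ctrl, 2.82-fold lower. Hgf, a plasminogen-like growth factor of stellate cells, had -1.02 ± 0.21, and -0.61 in the setting nearest to 0, where it no longer passed 2-fold. Plg itself was thus higher beside lower values of Plat, which was dim, and Anxa2. Other genes of the same list did not share that direction. S100a10 had 0.31 ± 0.20 and Plaur 0.44 ± 0.21, and Plau was not well above background in either pool. These were singled out after their values were seen. Among genes detected in 1 pool, F13a1, the catalytic partner of F13b, was detected in Ad-Ctrl alone. It read 0.021 in Ad-378 and 0.031 in Ad-Ctrl, 1.48-fold lower as the plain ratio of the 2 signals. F2rl2, a thrombin receptor of mouse platelets, was detected in Ad-378 alone, at 0.027 against 0.012 in Ad-Ctrl, with a bound of 1.43-fold. Both genes were as dim as Masp1, and their folds carry little weight. Of the 9 serpins that inhibit these cascades, 8 had positive differences, with a median of 0.34 (0.12 under quantile normalization). Serpina5, the protein C inhibitor, was dim and read 0.127 in Ad-378 and 0.037 in Ad-Ctrl (1.79 ± 0.27, and 0.89 at the lowest setting), while Serpina10, the protein Z-dependent inhibitor and the only 1 of the 9 below 0, had -0.57 ± 0.20.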

How the data were processed

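Liver RNA of 2 pools was measured on Agilent 1-colour arrays with 44397 spots, 1377 of them controls. The deposited scanner files hold spot intensity on a linear scale, background-subtracted and detrended within the array per the file headers, with the other values being deposited flags of 0 or 1 for background, saturation and outliers. The file headers give Feature Extraction 11.0.1.1, the submitters' processing notes 9.1. The deposited series matrix equals the raw median intensity. The labels' protocol names a blood RNA kit with globin removal, although the tissue is liver.

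Control spots and outlier spots (123 gene spots per array) were dropped, spots of a probe averaged, and the signal divided by the array's 75th percentile. Probes were named by transcript through a RefSeq table of GRCm38.p6 (27219 of 39401 probes). The headers name build mm9, so only promoter sequences carry coordinates, all of GRCm38.p6. The brightest probe detected on both arrays stood for its gene. A gene detected in 1 pool has a bound, set against its signal in the other pool or the dimmest detected probe there, whichever was higher. Of the members, 12 had 2 or more probes. With 1 array per group no test was run, and the number of arrays limits the precision.

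Members and lists were chosen with earlier results of these data known, and the cell sources, promoter windows and motifs after the values were seen. Signals were given for members at least 1.5-fold apart and for the 2 most and 2 least different of each role, and further pathway genes were named at 2-fold or where detected in 1 pool, others only after their values were seen. Alternatives were quantile, loess (span 0.3), another 75th percentile, the mean over probes, the series matrix, normexp (offset 50), no background filter and folds of 1.5 and 3. No mean signal column was found, so normexp ran on the median signal. The steps were tested on simulated data. Python 3.11.15, numpy 2.4.6, pandas 2.3.3, statsmodels 0.14.6, R 4.3.3 and limma 3.58.1 were used.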

Additional observations from a re-analysis of the deposited data

How the results depend on the processing

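With 1 array per pool, no setting gives a replicate check. No paired analysis was possible because a single array was made per pool. The medians of all members, of complement, of coagulation and of the other pathway genes moved by less than the median scanner error under each of the 7 alternative settings. That error is for single probes and is no measure of the spread of a median. The coagulation median of 0.10 turned to -0.03 under quantile and -0.06 under loess normalization. The median of all members turned from 0.14 to -0.02 under loess normalization. Counts at 2-fold moved more, as several members lay near the line. Under quantile normalization 2 members were at least 2-fold higher, 1 of complement and 1 of coagulation, and under loess also 2, 1 and 1. With the 75th percentile taken over detected probes alone, 3 members and 1 of complement were higher. On the series matrix values 3 members were higher and 0 lower, 1 and 0 in complement, with 0 lower in coagulation, and 221 and 395 of all genes were higher and lower. After normexp the counts were 3 and 0 for members, 1 and 0 in complement and 0 lower in coagulation, 1 higher and 2 lower among other pathway genes, and 190 and 341 of all genes. With no filter on background, 4 other pathway genes were higher, and 1058 and 1165 of all genes were higher and lower, since dim probes enter. At 1.5-fold, 10 members were higher and 6 lower, 7 and 4 in complement, with 2 lower in coagulation, 7 and 11 of the other pathway genes, and 1255 and 1723 of all genes. At 3-fold, 1 member was higher and 0 lower, 1 and 0 in complement, 0 and 0 in coagulation, 1 and 2 of the other pathway genes, and 106 and 201 of all genes. Apart from the thresholds and the filter, the cause of these shifts was not tested. No member at least 2-fold apart changed sign in any setting. Signal over background limits the dim members most: the Masp1 and Cfd probes were the dimmest.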

Other observations

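The acute phase proteins, which share the liver and much of the control by cytokines with complement and fibrinogen, were examined beside the members. Of 15 such genes, 9 had positive and 6 negative differences, with a median of 0.13, and none was at least 2-fold higher. The siderophore-binding protein gene Lcn2 read 4.42 in Ad-378 and 25.1 in Ad-Ctrl (-2.51 ± 0.20), and the orosomucoid gene Orm3 read 0.421 in Ad-378 and 1.88 in Ad-Ctrl (-2.16 ± 0.20). The other orosomucoid genes Orm1 and Orm2 had 0.30 and 0.19, so the family was split. The serum amyloid gene Saa3 differed by 0.86 ± 0.20, whereas Saa1, a main hepatocyte form, differed by 0.08 ± 0.20. The pentraxin gene Apcs, whose product binds C1q, read 1.93 in Ad-378 and 1.23 in Ad-Ctrl (0.66 ± 0.20). Crp, the related pentraxin, had -0.12 ± 0.20 and haptoglobin (Hp), which binds free haemoglobin, 0.20 ± 0.20. Lbp, which presents bacterial lipopolysaccharide, had -0.34 ± 0.20.

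Proteins that handle clotting factors before and after secretion were also measured, and those given here were chosen after their values were seen. Ggcx, the carboxylase that modifies the vitamin K-dependent factors, read 1.08 in Ad-378 and 0.754 in Ad-Ctrl (0.51 ± 0.20). Lman1 and Mcfd2, which carry factors V and VIII out of the endoplasmic reticulum, had 0.48 ± 0.20 and 0.41 ± 0.20, while F5 and F8 themselves had -0.18 and -0.34. Asgr1 and Asgr2, the subunits of the hepatocyte receptor that clears desialylated plasma glycoproteins and platelets, had 0.49 ± 0.20 and 0.61 ± 0.20. Gas6, a vitamin K-dependent ligand of receptor kinases, read 2.20 in Ad-378 and 1.36 in Ad-Ctrl (0.70 ± 0.20). The endothelial protein C receptor gene Procr read 0.169 in Ad-378 and 0.322 in Ad-Ctrl (-0.93 ± 0.21), on the same side as Thbd.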
